A study of Homo sapiens with 8 samples.

Results

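The genes described here build and run the DNA replication machinery and take cells into S phase. They were chosen by symbol, 51 genes in all; no threshold on measured values was applied, but earlier results of these data were known when the list was drawn up. The deposited table held 50 of them among 18787 gene symbols, and all 50 passed the filter on low values, as did 14282 genes in all. ORC6 had no row under that symbol and is not analysed here. The RNA came from T98 and U87, established human glioblastoma cell lines, collected 72 h after transfection with control siRNA or with siRNA against LKB1, a kinase encoded by STK11 that switches on AMPK and related kinases. Each line was measured under each siRNA in 2 libraries, 8 in total. The labels name no other modification of the cells, and each line is 1 tumour-derived culture. The labels speak of duplicates without saying whether these were separate transfections. The p-values given here therefore rest on these 8 libraries alone, and the spread among them may be technical. Except where stated, those of the siRNA effects and their difference come from fits with a term for the sequencing lane within each line. Such p-values measure how alike the effects were between the lanes of each line, not the full spread between libraries.

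DNA replication is prepared in G1, when the origin recognition complex, CDC6 and CDT1 load the MCM2-7 helicase onto DNA, a step called licensing. At the start of S phase the kinases CDC7-DBF4 and cyclin E-CDK2 fire the origins: CDC45 and the GINS complex join the helicase, primase and the polymerases copy both strands, and PCNA with its loader RFC holds the polymerases on DNA. Many of these genes are transcribed together by E2F factors when cells leave quiescence, and their transcripts are widely used to read proliferation in glioblastoma. In bulk RNA, fewer cells in S phase and less transcript per cell cannot be told apart.

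The column names give sequencing lanes: all 4 groups had a library on lane 2, and the second library of a group was sequenced on lane 4 (T98) or lane 5 (U87). Depth ranged from 25223747 to 38019176 recovered reads, and the shallowest and the deepest library were both U87 with LKB1 siRNA. Values are normalised read counts as the authors scaled them, and fold changes are on the log2 scale of the value plus 1. STK11 itself stood at 1999 and 2041 in the T98 controls and at 340 and 588 with LKB1 siRNA. In U87 it stood at 2445 and 2041 in the controls and at 385 and 361 with LKB1 siRNA, so the targeted transcript was lower in every LKB1 siRNA library. Among 8 glial and glioma markers, VIM (34021 to 292296) and CD44 (37284 to 63018) were abundant in every library. SOX2 and S100B were at or near 0 in both lines. FABP7 did not exceed 20.1 and GFAP did not exceed 50.7, and OLIG2 lay between 25.5 and 70.4. NES was between 1361 and 2073 in U87 but between 16.2 and 123 in T98. Of 10 markers of blood, vessel, epithelial and liver cells, 9 stayed at or below 63.3 in every library; CD68 was the exception, at 538 to 1125 in T98 and 12020 to 22934 in U87.

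In U87, most of the 50 genes were lower with LKB1 siRNA. Of the 50 genes, 45 fell, 1 rose (DNMT1) and 4 were not called (MCM8, CCNE1, POLD1 and POLD3), by limma with a lane term at an adjusted p of 0.05. Among all tested genes 5.91% were called lower and 5.29% higher in that comparison. The median log2 fold change of the 50 genes was -0.95, against -0.002 over all tested genes. The quartiles were -1.17 and -0.75 for the 50 genes and -0.26 and 0.26 over all tested genes. A fitted level at least 2-fold below the control was reached by 20 of the 50, and the share of all tested genes was not counted. In 48 of the 50, both LKB1 siRNA libraries lay below both control libraries, which held for 20.2% of all tested genes, and the same 48 were lower within lane 2 and within lane 5 (37.5% of all tested genes). Within lane 2 the median was -1.02, and within lane 5 it was -0.87. The calls, unlike the fold changes, rest on the lane term. Without it no replication gene was called in U87 (adjusted p from 0.071 to 0.829 by limma). Of the 50, 48 then had an unadjusted p under 0.05, as did 8.88% of all tested genes. The calls were also lost with any single U87 library left out. Such a fit takes the U87 effect from the other lane alone, with fewer residual degrees of freedom.

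The summed value of the 50 genes shows the same change as a share of all signal. In U87 it was 0.348% and 0.411% in the controls and 0.219% (lane 5) and 0.173% (lane 2) with LKB1 siRNA. In T98 it was 0.630% and 0.566% in the controls and 0.599% and 0.572% with LKB1 siRNA. The U87 groups did not overlap, whereas the T98 libraries with LKB1 siRNA lay between the 2 controls.

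**Figure D1:**
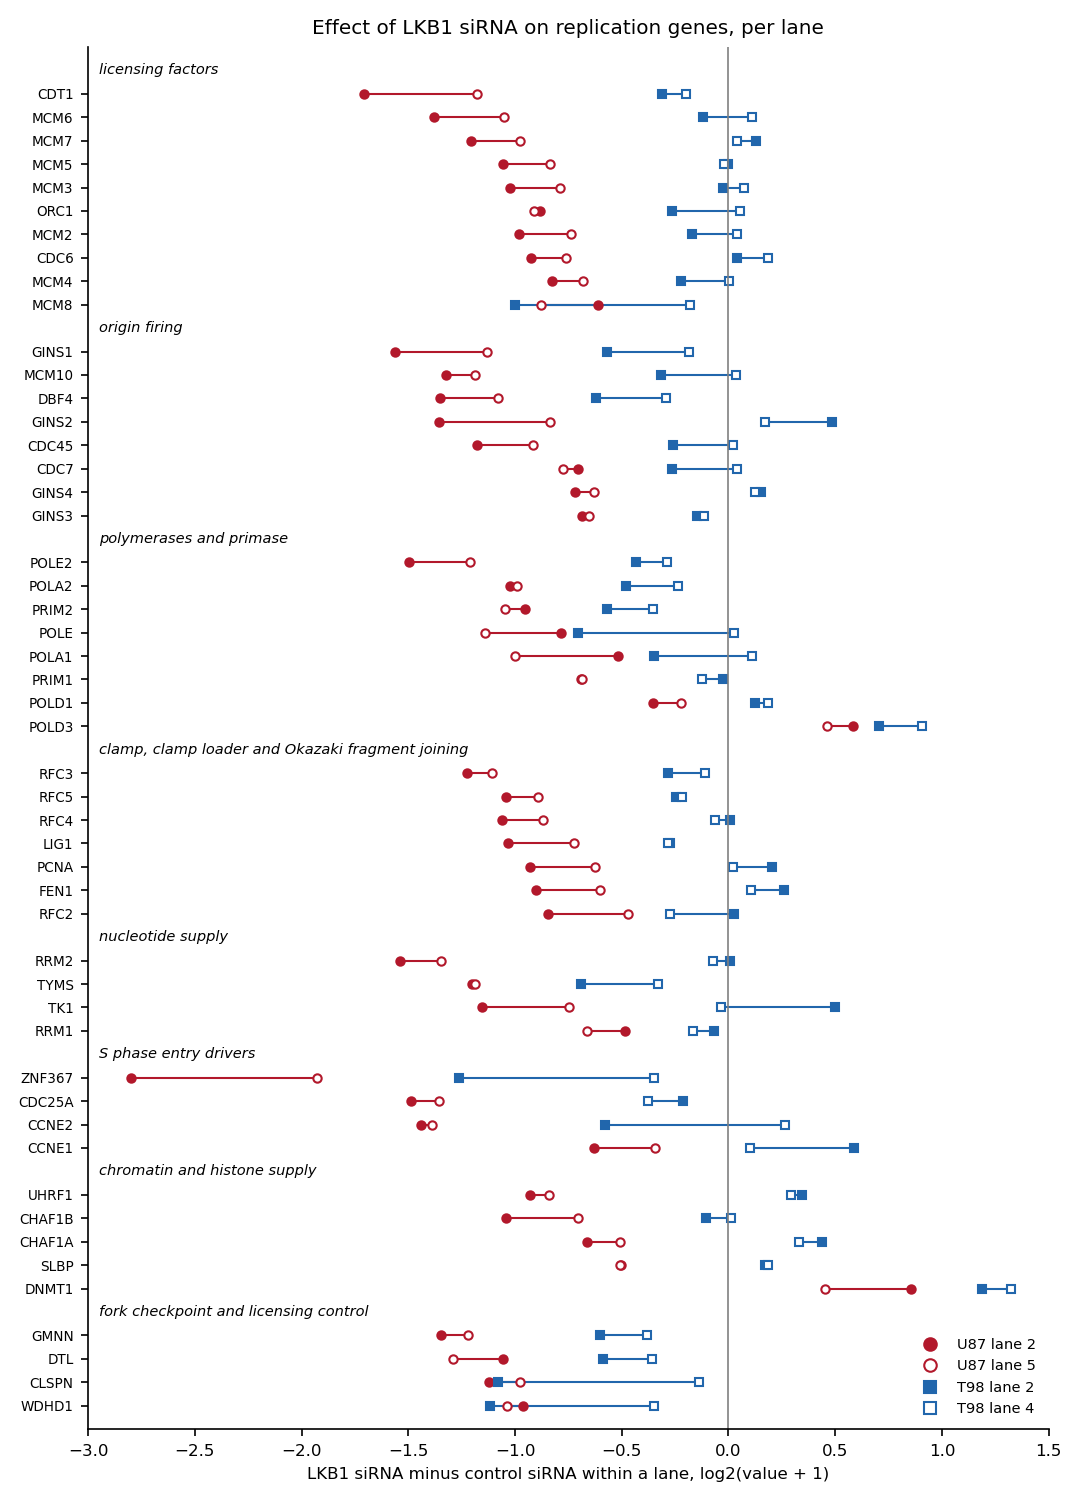
LKB1 siRNA minus control siRNA within each lane (x axis, log2 of the value plus 1) for the 50 genes, grouped by role and ordered by the U87 effect. Circles are U87 (filled lane 2, open lane 5) and squares T98 (filled lane 2, open lane 4). The U87 points of 48 genes lie left of 0 in both lanes; DNMT1 and POLD3 lie right of 0 in both lines.

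Promoter sequences show what many of these genes share outside their transcript levels. RefSeq promoters on GRCh38.p14, from 250 bases before to 50 bases after the first listed start, were matched to 45 of the 50 genes; CCNE2, GINS4, MCM4, MCM5 and POLD3 had no entry. They were searched on both strands for the E2F element, spelled TTTCCCGC, TTTCGCGC, TTTGCCGC or TTTGGCGC. It was found in 24 of 45 promoters (53.3%), against 4.99% of 10500 promoters of tested genes and 3.33% of all 27305 promoters. CCAAT was found in 51.1% (36.7% of tested genes), and TTTGAA, the core of the CHR element of mitotic genes, in 4.44% (10.2% of tested genes). These are letter matches, not measured binding sites. The windows below show the element in the genes with the largest U87 fall (ZNF367), in a gene with 2 pairs of overlapping matches (MCM6), in the licensing factor CDT1, in the phosphatase CDC25A and in the genes MCM7 and UHRF1, whose effects differed between the lines. Each is upstream of the start and written in the direction of transcription, with the element in capitals.
ZNF367, chr9:96418380-96418409, minus strand: ccagGCGCGAAAtgtaacGCGGGAAAagcc
MCM6, chr2:135876575-135876604, minus strand: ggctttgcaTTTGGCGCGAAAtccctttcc
MCM6, chr2:135876513-135876542, minus strand: ttggtcaggTTTGGCGCGAAAtctccagct
CDT1, chr16:88803743-88803772, plus strand: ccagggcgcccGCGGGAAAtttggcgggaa
CDC25A, chr3:48188443-48188472, minus strand: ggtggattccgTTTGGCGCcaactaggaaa
MCM7, chr7:100101566-100101595, minus strand: cagctcggaccGCGGGAAAcccggcgcctg
UHRF1, chr19:4909476-4909500, plus strand: gccgagttttcGCGGGAAAaaaatc
In MCM6 the 12 capital letters hold 2 overlapping matches of different spelling, TTTGGCGC on the strand shown and TTTCGCGC on the other, and the same run occurs in both windows. RRM2, the third gene whose effects differed between the lines, holds no match in its window. Of 24 genes with a match 22 were called lower in U87, and of 21 without one 19 were, with median log2 fold changes of -1.03 and -0.90; these were not compared by a test. DNMT1, the gene that rose, also holds a match, at its start site.

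Among the licensing factors, 9 of 10 fell in U87. CDT1, which brings the MCM helicase to origins, was at 1126 and 1451 in the U87 controls and at 642 and 344 with LKB1 siRNA. Its log2 fold change was -1.44 ± 0.16 (SE, n = 2 libraries per group in the limma fit; adjusted p = 0.00302). In T98 it was at 2404 and 1897 in the controls and at 1936 and 1650 with LKB1 siRNA, and those groups overlapped.

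The helicase subunits fell as a block. MCM6 was at 5838 and 5632 in the U87 controls and at 2717 and 2240 with LKB1 siRNA, a log2 fold change of -1.22 ± 0.13. MCM7 followed at -1.09, and the other subunits ran from MCM5 at -0.95 through MCM3 at -0.91 and MCM2 at -0.86 to MCM4 at -0.75, all called lower. The origin recognition subunit ORC1 (-0.90) and the loader CDC6 (-0.84) were called lower too. MCM8, a relative of the helicase subunits that acts with MCM9 in recombination, was at 656 and 896 in the controls and at 430 and 486 with LKB1 siRNA; its log2 fold change of -0.74 ± 0.20 was not called (adjusted p = 0.0537).

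All 8 origin firing genes fell in U87. GINS1, a subunit of the GINS complex that activates the helicase, was at 554 and 534 in the controls and at 243 and 187 with LKB1 siRNA, a log2 fold change of -1.34 ± 0.17. MCM10, which helps the helicase start, changed by -1.26. DBF4, the activating subunit of the CDC7 kinase, changed by -1.22. The catalytic subunit CDC7 itself changed by -0.74, so both parts of the kinase were lower. CDC45, the partner of GINS and the helicase, changed by -1.05. The 3 other GINS subunits differed in size, with GINS2 at -1.10, GINS4 and GINS3 both at -0.67.

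Of 8 polymerase and primase genes, 6 fell. POLE2, an accessory subunit of the leading strand polymerase epsilon and present in the U87 controls at 115 per kilobase of transcript, was at 242 and 211 in the U87 controls and at 85 and 91 with LKB1 siRNA (log2 fold change -1.35 ± 0.19). Its catalytic partner POLE changed by -0.96. The primase and polymerase alpha subunits, which lay down the primers, changed by -1.01 (POLA2), -0.999 (PRIM2), -0.76 (POLA1) and -0.69 (PRIM1). The genes not called belong to polymerase delta, which copies the lagging strand. Its catalytic subunit POLD1 changed by -0.29 ± 0.12 and was not called (adjusted p = 0.178). Its subunit POLD3 was at 352 and 423 in the controls and at 528 and 582 with LKB1 siRNA, a log2 fold change of 0.52 ± 0.14 that missed the threshold (adjusted p = 0.0518).

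The clamp, its loader and the genes that join Okazaki fragments fell without exception, 7 of 7. PCNA, the sliding clamp, was at 4581 and 3746 in the U87 controls and at 2431 and 2405 with LKB1 siRNA (log2 fold change -0.78 ± 0.13). Within the clamp loader, RFC3 changed by -1.16, RFC5 by -0.97, RFC4 by -0.96 and RFC2 by -0.66. The ligase LIG1 changed by -0.88 and the flap nuclease FEN1 by -0.75. RFC4 overlaps EIF4A2 by 4 bases on the other strand in the deposited coordinates, and the reads carry no strand.

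All 4 genes of nucleotide supply fell. RRM2, the S phase subunit of ribonucleotide reductase, was at 9776 and 11205 in the U87 controls and at 4397 and 3362 with LKB1 siRNA, a log2 fold change of -1.44 ± 0.12 (adjusted p = 0.00195). Its larger partner RRM1, which is less tied to the cell cycle, changed by -0.57. Thymidylate synthase, TYMS, was at 7709 (lane 2) and 3696 (lane 5) in the controls and at 3355 (lane 2) and 1624 (lane 5) with LKB1 siRNA. Each siRNA group was higher on lane 2 than on lane 5, and within the lanes the log2 fold changes were -1.20 and -1.19. TYMS overlaps ENOSF1 by 3176 bases on the other strand, and reads of the pair cannot be told apart there. Thymidine kinase, TK1, changed by -0.95.

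The largest single change lay in the group listed as drivers of S phase entry. It was that of ZNF367, whose part in S phase entry was not examined here. ZNF367, a zinc finger gene (NM_153695, chr9:99148225-99180669 on hg19), was at 1533 and 1620 in the U87 controls and at 219 and 426 with LKB1 siRNA, a log2 fold change of -2.36 ± 0.27 (5.14-fold lower, adjusted p = 0.00328). CDC25A, the phosphatase that frees cyclin-dependent kinases from inhibition, changed by -1.42 ± 0.12. The cyclins E parted: CCNE2 changed by -1.42 ± 0.20, while CCNE1 was at 688 and 616 in the controls and at 486 and 444 with LKB1 siRNA (-0.49 ± 0.17, adjusted p = 0.12, not called). The difference between the cyclins was not tested. CCNE2 overlaps INTS8 by 269 bases on the other strand.

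Chromatin and histone supply was the only role with a called rise in U87. UHRF1, which recruits DNMT1 to newly copied DNA, was at 2689 and 3859 in the U87 controls and at 2151 and 1412 with LKB1 siRNA (-0.89 ± 0.11). DNMT1, the maintenance DNA methyltransferase (NM_001379, chr19:10244022-10305755 on hg19), was at 1472 and 2019 in the controls and at 2664 and 2759 with LKB1 siRNA, a log2 fold change of 0.65 ± 0.14 (adjusted p = 0.0236). Thus the partners moved in opposite directions in U87. The subunits of the histone chaperone CAF-1, CHAF1B and CHAF1A, changed by -0.87 and -0.58, and SLBP, which binds histone mRNA, by -0.51.

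All 4 genes of fork checkpoint and licensing control fell. GMNN, the inhibitor of CDT1, was at 743 and 642 in the U87 controls and at 292 and 274 with LKB1 siRNA (-1.28 ± 0.14). DTL, the ubiquitin ligase receptor that removes CDT1 in S phase, changed by -1.17. CLSPN, which relays ATR signals to CHK1, changed by -1.05, and WDHD1, which couples helicase and polymerase alpha, by -1.0. Thus CDT1 and the genes that restrain it were lower together.

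**Figure D2:**
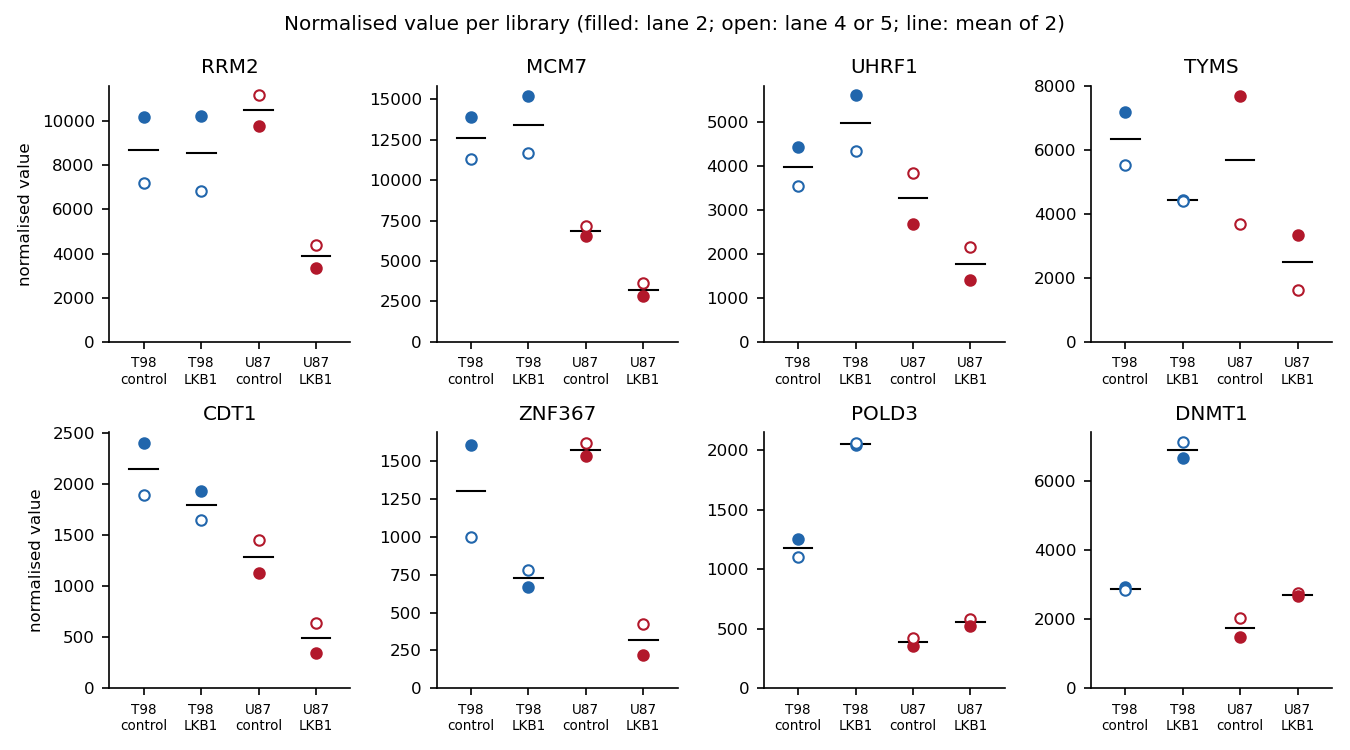
Normalised value (y axis) of 8 genes in each of the 8 libraries, by line and siRNA; filled points are lane 2, open points lane 4 or 5, and the line is the mean of 2 libraries. RRM2, MCM7, UHRF1 and CDT1 are lower with LKB1 siRNA in U87 with no overlap, and DNMT1 and POLD3 are higher in both lines.

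In T98 most replication genes were not called. Of 50 genes, 3 fell (TYMS, DTL and WDHD1), 2 rose (DNMT1 and POLD3) and 45 were not called. Among all tested genes 7.33% were called lower and 8.48% higher, so neither share of the replication genes was above the background. Their median log2 fold change was -0.11, against 0.02 over all tested genes. The LKB1 siRNA libraries lay below both controls for 11 genes (20.5% of all tested genes) and above both for 6 (20.5% of all tested genes), and overlapped for 33. Between lanes, 21 genes were lower in both (34.6% of all tested genes), 13 higher in both (38.2% of all tested genes) and 16 went in opposite directions.

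DNMT1 showed the largest change in T98. It was at 2925 and 2842 in the controls and at 6662 and 7114 with LKB1 siRNA, a log2 fold change of 1.25 ± 0.14 (2.39-fold higher, adjusted p = 0.00475 by limma). POLD3 was at 1254 and 1100 in the controls and at 2042 and 2064 with LKB1 siRNA (0.81 ± 0.14, adjusted p = 0.0135). These rises were in genes that were also higher in every U87 library with LKB1 siRNA. The next highest values, CHAF1A (0.38), CCNE1 (0.34) and GINS2 (0.33), did not pass the test.

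The 3 genes that fell in T98 also fell in U87. TYMS was at 7194 and 5536 in the controls and at 4450 and 4404 with LKB1 siRNA (-0.51 ± 0.13, adjusted p = 0.0386). DTL was at 6011 and 4762 in the controls and at 3994 and 3718 with LKB1 siRNA (-0.47 ± 0.13, adjusted p = 0.0484). WDHD1 was at 1880 and 1490 in the controls and at 865 and 1168 with LKB1 siRNA (-0.73 ± 0.19, adjusted p = 0.0401), with a lane 2 change of -1.12 and a lane 4 change of -0.35. The lowest estimate was that of ZNF367 (-0.81 ± 0.27, adjusted p = 0.0772), followed after WDHD1 by CLSPN (-0.61) and MCM8 (-0.59), none of the 3 called. Without either T98 library of lane 2 the T98 effect rests on lane 4 alone, where the median of the 50 genes was -0.01. Without either of lane 4 it rests on lane 2 alone, where the median was -0.19. The called falls were lost with lane 4 alone, and the count of falls changed with lane 2 alone. Fitting T98 alone or dropping the lane term gave 0 calls in T98 by limma. Then 10 and 4 genes had an unadjusted p under 0.05, against 24.1% and 10.5% of all tested genes. Leaving out any U87 library also removed the T98 calls, in fits with fewer residual degrees of freedom.

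The difference of the effects was tested directly, as the T98 effect minus the U87 effect. It was positive for all 50 genes and for 53.7% of all tested genes, with medians of 0.80 and 0.04. An unadjusted p under 0.05 was found for 46 of the 50 and for 14.8% of all tested genes. Without the T98 control or LKB1 siRNA library of lane 4, the estimates of MCM8, WDHD1 and CLSPN fell to -0.26, -0.12 and -0.03. It was called for 3 genes, in a comparison in which 0.371% of all tested genes were called higher and 0.105% lower. RRM2 (NM_001034, chr2:10262695-10271546 on hg19) differed by 1.41 ± 0.17 (adjusted p = 0.0349 by limma): the T98 values were 10182 and 7204 in the controls and 10230 and 6851 with LKB1 siRNA, with log2 changes of 0.007 in lane 2 and -0.07 in lane 4, while the U87 values fell. MCM7 (NM_005916, chr7:99690404-99699427) differed by 1.18 ± 0.17 (adjusted p = 0.0439); it was at 13896 and 11313 in the T98 controls and at 15198 and 11644 with LKB1 siRNA, and at 6550 and 7139 in the U87 controls and 2841 and 3628 with LKB1 siRNA. MCM7 overlaps AP4M1 by 298 bases on the other strand. UHRF1 (NM_001048201, chr19:4909510-4962165) differed by 1.21 ± 0.16 (adjusted p = 0.0439 by limma), from 4430 and 3542 to 5620 and 4346 in T98.

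Other large differences missed the threshold. They were ZNF367 (1.56, adjusted p = 0.13), GINS2 (1.42, adjusted p = 0.0607), CCNE2 (1.26, adjusted p = 0.118) and MCM6 (1.21, adjusted p = 0.0527). The smallest were MCM8 (0.15), WDHD1 (0.26), POLD3 (0.28), POLD1 (0.44) and CLSPN (0.44). Thus 42 genes were lower in U87 and not called in T98, but for 39 of these 42 a difference between the lines was not called. The matching counts over all tested genes were not made. Without a lane term, none of the 3 differences was called by limma, with 23 genes at an unadjusted p under 0.05, against 2.57% of all tested genes. The called differences were also lost when any U87 library or either T98 library of lane 2 was left out. Each such fit takes the effect in that line from its other lane alone. Without either T98 library of lane 4 the calls changed too.

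**Figure D3:**
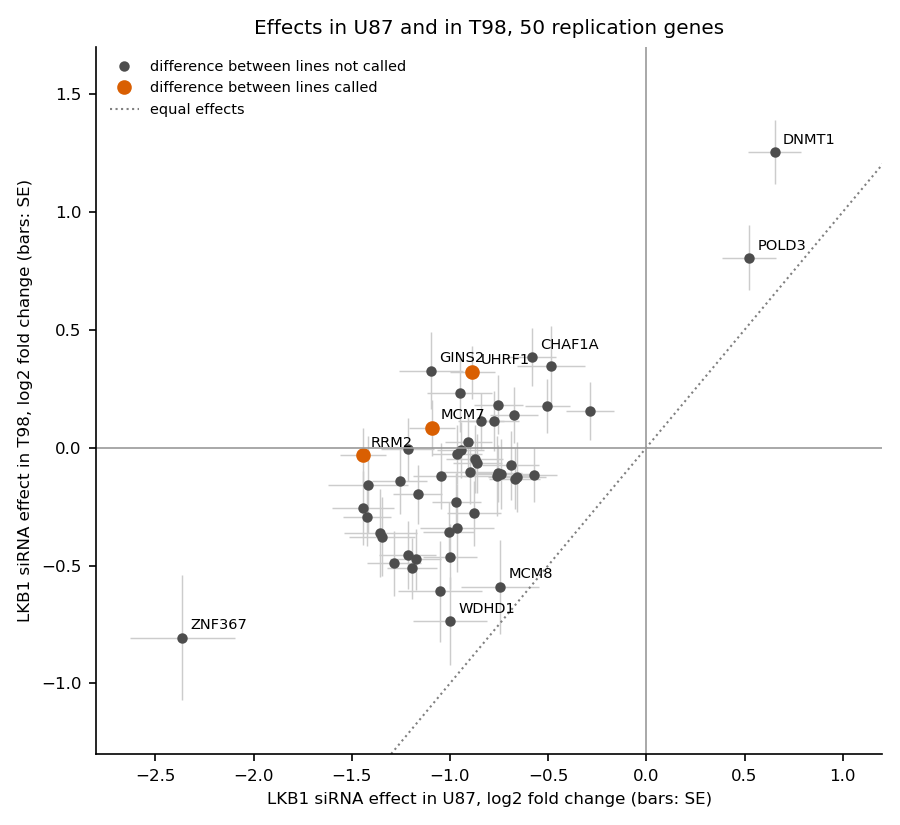
Log2 fold change with LKB1 siRNA in U87 (x axis) and in T98 (y axis) for the 50 genes, with standard errors as bars; the dotted line marks equal effects. Every point lies above the dotted line, and the 3 orange points (RRM2, MCM7 and UHRF1) are the differences that were called.

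With control siRNA, T98 held more replication transcript than U87. Of the 50 genes, 27 were higher in T98 and 1 was lower, by limma without a lane term, and the median log2 difference was 0.74 against -0.01 over all tested genes. Among all tested genes 18.3% were called higher in T98 and 19.5% lower. Fewer were called higher without the T98 or the U87 control of lane 2, or without the U87 control of lane 5. Each of these fits leaves 1 library in a control group. Both T98 controls lay above both U87 controls for 40 genes, which held for 35.7% of all tested genes. On the shared lane 2 the median difference was 0.97, and between lanes 4 and 5 it was 0.56. These U87 and T98 controls are also the baseline of the siRNA effects above, so the 2 kinds of comparison are not independent.

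MCM8 and GINS1 stood furthest apart. MCM8 was at 4542 and 3560 in the T98 controls and at 656 and 896 in the U87 controls, a log2 difference of 2.39 ± 0.26 (5.24-fold, adjusted p = 0.000487 by limma). GINS1 was at 3173 and 2452 in T98 and at 554 and 534 in U87 (2.36 ± 0.23). DTL (1.80), DBF4 (1.73) and POLD3 (1.60) came next, and each was called higher in T98. DBF4 and DTL each overlap a gene on the other strand, by 149 and 84 bases.

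MCM6 went the other way. It was at 3831 and 2723 in the T98 controls and at 5838 and 5632 in the U87 controls (-0.83 ± 0.22, adjusted p = 0.0228), the sole helicase subunit that was lower in T98. ZNF367 (-0.32), RRM2 (-0.29), CCNE1 (-0.09) and SLBP (0.21) had the next lowest estimates and were not called. Within U87 controls, values per kilobase of transcript were highest for TYMS (3587), TK1 (3199) and RRM2 (3046) and lowest for POLD3 (93.2).

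**Figure D4:**
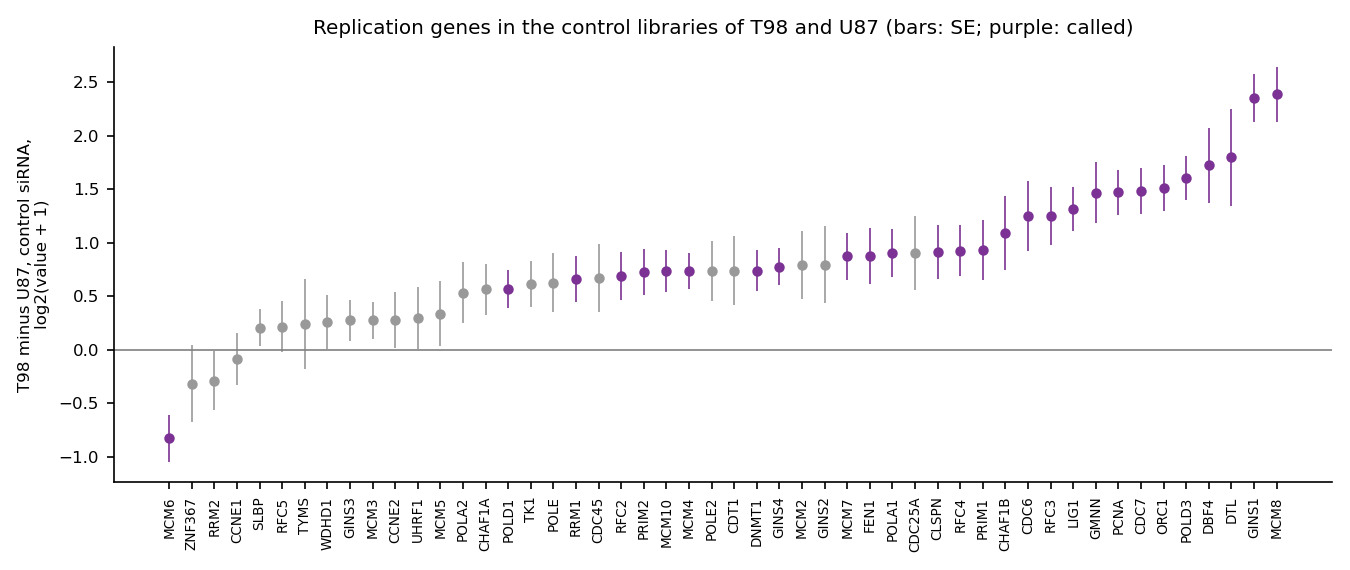
Log2 difference between the T98 and U87 control libraries (y axis) for the 50 genes in rising order, with standard errors as bars; purple marks genes called. MCM6 is the 1 gene called lower in T98, and MCM8 and GINS1 stand highest, at 2.39 and 2.36.

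Other genes of the replication pathway were described from a separate list. Of 47 tested genes of that list, 23 fell in U87 and 2 rose (SUPT16H and RRM2B), with a median of -0.49; 22 were not called. In T98, 1 fell and 3 rose. The shares of all tested genes called, 5.91% lower and 5.29% higher in U87 and 7.33% lower and 8.48% higher in T98, apply to this list and the lists that follow. CCNA2, the S phase cyclin A, was at 4089 and 4175 in the U87 controls and at 1654 and 1256 with LKB1 siRNA (-1.52 ± 0.13). The histone chaperone ASF1B changed by -1.50 in U87 and by -0.14 in T98 (not called), a difference that was called for both genes (adjusted p = 0.0439). SUPT16H, a subunit of the histone chaperone FACT, rose in U87 (0.51) and T98 (0.68), and the chromatin remodeller HELLS rose in T98 (0.69).

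Of 12 tested E2F and RB family genes, 4 fell in U87 (E2F1, E2F2, E2F8 and RBL1); in T98, 3 fell (TFDP2, E2F7 and RBL2) and 1 rose (E2F5). E2F1, an activator of S phase genes, was at 4404 and 3964 in the U87 controls and at 1180 and 1426 with LKB1 siRNA (-1.69 ± 0.14), and at 3530 and 3328 in the T98 controls and 3848 and 3241 with LKB1 siRNA. E2F2, a second activator, changed by -1.93 ± 0.16 in U87 and by 0.09 in T98. The difference between the lines was called for both (adjusted p = 0.0349). In T98 the list's smallest p-values were those of TFDP2, an E2F partner, which fell (-0.81), and E2F5, a repressor type E2F, which rose (0.95).

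Genes of mitosis, which follow replication in the cell cycle, were also lower in U87. Of 27 tested, 26 fell and none rose, with a median of -1.43. In T98, 2 fell and 2 rose, with a median of -0.12. The T98 effect minus the U87 effect was positive for all 27, with a median of 1.18. It was called higher for 10 of them, against 0.371% of all tested genes. NUSAP1, a spindle protein, changed by -1.69 in U87, and CDC20, an activator of the anaphase-promoting complex, by -1.50. PRC1, which bundles the central spindle, was the gene not called in U87 (-0.38) and rose in T98 (1.02), whereas HMMR fell in both lines (-2.22 and -1.40). The replication and mitosis lists were not compared by a test.

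The calls in these lists also rest on the lane term. Without it, limma called 3 of their genes in U87 (E2F1, E2F2 and NUSAP1, adjusted p = 0.0466), none in T98 and no difference between the lines. Without the lane term, an unadjusted p under 0.05 by limma was found for 52 (U87), 7 (T98) and 39 (difference) of their 86 genes. The shares of all tested genes were 8.88%, 10.5% and 2.57%. The calls were also lost when any U87 library was left out, in fits that take the U87 effect from its other lane alone. The U87 medians of the other replication, E2F and RB and mitosis lists were -0.55, -0.424 and -1.531 within lane 2. Within lane 5 they were -0.518, -0.452 and -1.265. Without the T98 control or LKB1 siRNA library of lane 2, the calls of a difference were lost, as were those in T98 except for PRC1. Without either T98 library of lane 4 the calls in T98 changed too. The T98 medians of the 3 lists, in the same order, were 0.032, -0.419 and -0.26 within lane 2. Within lane 4 they were 0.04, -0.091 and -0.141.

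Across the 50 genes, the U87 effect in lane 2 and in lane 5 correlated at r = 0.90 (rho = 0.78), a description over genes that share libraries and are not independent. The U87 and T98 effects correlated across the same genes at r = 0.74 (rho = 0.58). Genes with a lower log2 fold change in one line thus tended to have a lower one in the other. The U87 effect showed little relation to the control level per kilobase (r = -0.12, rho = -0.04) or to transcript length (r = 0.09, rho = -0.004).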

How the data were processed

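RNA-seq was made from 8 libraries, 2 for each line and siRNA, with the TruSeq RNA kit V2, per the labels' protocols. The submitters' processing notes name TopHat2 2.0.8b, edgeR and the build hg19/GRCh37. Which program counted reads, and on which annotation, is not given in the sources used here. For 18815 rows the authors deposited a normalised signal, 1 value for each transcript in each library. Their form is that of library-size-adjusted pseudo-counts (common dispersion 0.068), and when it was inverted 100% of values came out within 0.05 of a whole number of reads, which gave the depths of 25223747 to 38019176 reads. A check of the step between low values did not accept whole reads for 2 libraries (LKB1 siRNA, T98 lane 4 and U87 lane 5), so the depths rest on the inversion alone and no count model was fitted. A symbol kept its row with the highest mean, and testing required a value of 10 or more in 2 or more libraries.

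All 8 libraries entered each limma-trend fit (limma 3.58.1 in R 4.3.3), run on log2-transformed values after adding 1; p-values are two-sided and were adjusted by Benjamini-Hochberg across the 14282 genes, with a threshold of 0.05. The siRNA effects and their difference used a lane term per line (2 residual degrees of freedom); lanes come from the column names, each library of a group being paired with the library of the other siRNA on its lane. Lane deviations correlated at 0.717 (T98) and 0.809 (U87) between the siRNA groups of 1 line and at 0.124 to 0.177 between lines. The comparison of the lines had no lane term (4 residual degrees of freedom). The script was tested on simulated data.

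The genes, the other lists, the lane term and the tests were chosen with earlier results of these data known. Every replication gene is named for U87. For T98, the difference and the lines, the 5 highest and 5 lowest and every called gene (if 10 or fewer) are named, and for each other list the 2 genes with the smallest adjusted p in each line. Genes given to complete a count of 5 or fewer were named after their values were seen. Alternatives changed the lane term, pseudocount, filter, scaling, fit and libraries.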

Additional observations from a re-analysis of the deposited data

Results flagged for a closer look

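The effect of LKB1 siRNA differed between T98 and U87 by the test of the difference (limma with a lane term) for 3 replication genes. RRM2 differed by 1.41 on the log2 scale, UHRF1 by 1.21 and MCM7 by 1.18, each higher in T98 relative to its control than in U87. With 2 libraries per group, no library could be examined as standing apart from its own group.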

How the results depend on the processing

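Libraries pair by lane, and the calls rest on that pairing. Within a line the lane is also the replicate, so an effect of sequencing and one of the culture or transfection cannot be told apart. Without the replicate block (no lane term), 0 replication genes were called in U87, T98 or the difference. With it there were 45 lower and 1 higher in U87, 3 lower and 2 higher in T98 and 3 differences. Without it, 48 (U87), 4 (T98) and 23 (difference) had an unadjusted p under 0.05 by limma. The shares of all tested genes were 8.88%, 10.5% and 2.57%. With no filter on low values, limma again called 0 replication genes in U87, T98 or the difference. Then 48, 13 and 42 genes had an unadjusted p under 0.05 (20.9%, 23.5% and 11.6% of all genes). The cause was not tested. With each line fitted alone, T98 gave 0 lower and 0 higher, and U87 gave 46 lower and 2 higher. A pseudocount of 10, a filter of 50 and median-of-ratios scaling (added after seeing the data) also gave 2 higher in U87. Called differences numbered 1 with a pseudocount of 0.5, 6 with 10 and 5 with TMM scaling. Leaving out 1 library gave 0 to 46 lower and 0 to 2 higher in U87, 0 to 9 lower and 0 to 2 higher in T98, 0 to 6 differences, and 10 to 27 higher and 0 to 1 lower in T98 against U87. The median of the 50 genes kept its sign under every alternative run, from -1.02 to -0.87 in U87 and from -0.19 to -0.01 in T98. Without the T98 control or LKB1 siRNA library of lane 4, the differences of MCM8, WDHD1 and CLSPN reversed; leaving out 1 library gave -0.26 to 0.57 (MCM8), -0.12 to 0.65 (WDHD1) and -0.031 to 0.92 (CLSPN), and -0.66 to 0.029 for ZNF367 in T98 against U87, which was above 0 without the T98 control of lane 4. The planned edgeR and DESeq2 fits were not run, because a check of the step between low values did not accept the recovered reads of 2 libraries (LKB1 siRNA, T98 lane 4 and U87 lane 5); those reads served only for depth and TMM scaling. With 2 libraries per group, an effect that was not called is not shown to be absent; overlapping genes on the other strand touch 6 of the 50.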
